A study of Mus musculus with 6 samples.

Results

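The genes Pecam1, Cdh5, Kdr, Flt1, Tek, Tie1, Cldn5, Egfl7, Emcn and Esam are known from the endothelium, the cell layer that lines blood and lymph vessels, and were followed here in cultured mouse dermal fibroblasts. They were looked up by symbol in a table of 23407 genes, and all 10 were found. The cells came from the back skin of 12-week-old mice, with 3 libraries labelled WT and 3 labelled TSP2KO, the genotype without thrombospondin-2, the product of Thbs2. Both groups were handled in the same way. After trypsin overnight the dermis was freed of epidermis and fat, digested with collagenase and grown in medium with serum for 3 to 5 days to enrich fibroblasts, and RNA was taken at passage 1. The knockout allele and the strain are not described in the labels. Nor do the labels tie a library to an animal, so every p-value reflects the spread among these 6 libraries alone, part of which may be technical.

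Endothelial cells are joined by VE-cadherin, claudin-5 and other adhesion molecules. They carry receptors for vascular endothelial growth factors (VEGF) and for angiopoietins, through which neighbouring stromal cells signal to them. In skin they form the capillaries and lymphatics of the dermis, and thrombospondin-2 is known as an inhibitor of vessel growth. In bulk RNA, fewer endothelial cells and less RNA per cell cannot be told apart.

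The 10 fibroblast markers summed to between 181317 and 507989 normalised counts per library, and the 10 endothelial genes to between 717 and 6697. Of the fibroblast markers, 3 were lower in every TSP2KO library than in every WT library, as were 8.27% of all genes tested. Of the 10 markers, 8 had a log2 fold change (TSP2KO minus WT) below 0 and 2 above. Their median was -1.07, beside -0.01 over all genes tested. Dcn had a mean of 48265 in WT and 8554 in TSP2KO, while Col1a1, among the 2 above 0, had 44745 and 46809. The sum therefore does not measure the part of fibroblasts in each library. Estimated depth lay between 14776502 and 34599855 reads. Thbs2, which checks the labels, had 122061 and 116720.0 normalised counts in WT 1 and WT 2, and 5177, 6635 and 4891 in the TSP2KO libraries. A value of 8841 was found in the library labelled WT 3, which goes against its label, though it was above all 3 TSP2KO values. Other genes fell on both sides. For 14 of 15 macrophage markers tested, this library, WT 1 and WT 2 all lay above every TSP2KO library. For the other, Cd68, this library had 258.5 and TSP2KO at most 139.9, while WT 1 had 108.7 and overlapped. Dcn had 38394.5 in it and at most 12199.7 in TSP2KO. Postn had 31931.2 in it, within the TSP2KO range of 26555.2 to 41342.4. The reason was not tested. The library is therefore named in that way throughout, and every WT mean includes it unless stated. Where 3 values are given for a genotype they stand in the order of libraries 1, 2 and 3, so the third WT value is always that of the library labelled WT 3.

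What most of the 10 genes shared was 2 low libraries, WT 2 and TSP2KO 3, not a split by genotype and not 1 full order. For 5 of the 10, the library labelled WT 3, TSP2KO 1 and TSP2KO 2 were all above the other 3, against 9.12% of all genes tested. Of the 10, 8 were highest in the library labelled WT 3, as were 21.7% of all 14707 genes tested. For 9 of the 10, WT 2 and TSP2KO 3 were both below the other 4 libraries, against 6.62% of all genes tested. None of the 10 passed the test between genotypes. For 0 of the 10 did the values of the genotypes stand apart without overlap, while they did for 14.2% of all genes tested. The summed value of the 10 was 1865, 769 and 6697 normalised counts in WT and 2927, 2850.3 and 717 in TSP2KO. WT 1 and WT 2 lay below TSP2KO 1 and TSP2KO 2 and above TSP2KO 3, and the library labelled WT 3 was above all others.

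Promoters of endothelial genes are known to be bound by factors of the ETS family, whose DNA site holds the core GGAA. RefSeq start sites on GRCm38.p6, the assembly also called mm10, were found for 7 of the 10 genes. The 250 bases before the start are shown for 4 of the 5 whose RefSeq start lay within 11 bases of the gene's start in GENCODE M21. The other one, Kdr, holds the core 4 times and is not shown, since 2 examples of each pattern were chosen. Emcn and Tek had their highest values in the library labelled WT 3, and Flt1 and Cldn5 in WT 1, so the sequences stand for both patterns over the libraries. Capitals mark GGAA or its reverse complement TTCC, each written 5′ to 3′ on the strand of the gene.
Emcn, chr3:137340828-137341077, plus strand: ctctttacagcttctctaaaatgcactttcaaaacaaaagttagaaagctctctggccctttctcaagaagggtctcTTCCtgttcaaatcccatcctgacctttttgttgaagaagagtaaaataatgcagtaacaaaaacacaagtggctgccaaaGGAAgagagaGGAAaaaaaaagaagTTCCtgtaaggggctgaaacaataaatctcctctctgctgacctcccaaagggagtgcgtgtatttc
Tek, chr4:94739039-94739288, plus strand: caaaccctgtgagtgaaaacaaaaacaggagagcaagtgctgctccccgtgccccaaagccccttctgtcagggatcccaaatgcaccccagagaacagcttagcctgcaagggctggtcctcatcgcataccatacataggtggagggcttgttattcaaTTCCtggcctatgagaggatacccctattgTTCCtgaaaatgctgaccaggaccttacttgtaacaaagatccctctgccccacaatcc
Flt1, chr5:147726012-147726261, minus strand: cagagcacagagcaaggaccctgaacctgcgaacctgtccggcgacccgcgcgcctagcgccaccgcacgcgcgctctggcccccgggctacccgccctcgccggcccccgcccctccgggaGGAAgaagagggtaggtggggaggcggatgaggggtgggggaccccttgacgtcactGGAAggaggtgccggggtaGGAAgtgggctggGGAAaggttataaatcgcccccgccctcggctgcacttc
Cldn5, chr16:18776597-18776846, plus strand: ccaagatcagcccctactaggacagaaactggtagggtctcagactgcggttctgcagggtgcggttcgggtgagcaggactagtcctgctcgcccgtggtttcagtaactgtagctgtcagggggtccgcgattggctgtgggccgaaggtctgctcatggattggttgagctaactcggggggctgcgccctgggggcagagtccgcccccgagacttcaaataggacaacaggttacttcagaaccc
The core was found 4 times before Emcn, 2 times before Tek, 4 times before Flt1 and 0 times before Cldn5. It occurs in 93.4% of the 32817 RefSeq promoter windows of this length, so its presence sets no promoter apart. AGGAAG, or CTTCCT on the other strand, contains the core and was found 2 times before Emcn, 2 times before Flt1 and 0 times before Tek and Cldn5, and it occurs at least once in 29.5% of all windows. GC content was 40.8% before Emcn and 70.4% before Flt1, with a median of 52.4% over all windows. The letters alone are described here, and no binding was measured.

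Values below are the authors' normalised counts. All 60 values of the 10 genes were whole multiples, within 0.02 reads, of the worth of 1 read in their library. They stood for 2 to 3528 reads, and 56 of the 60 for at least 40 reads. Differences between genotypes are log2 fold changes, TSP2KO minus WT, on the scale log2(value + 1), which understates the change of low values. They come from limma's moderated test over all 14707 genes with a mean of at least 10, with the threshold at 0.05 after Benjamini-Hochberg adjustment. Over all these genes 9 passed, or 0.0612%, all lower in TSP2KO, and 0 of the 10 endothelial genes were among them. At an unadjusted p under 0.05 again 0 of the 10 passed, against 1434 of all 14707 genes. By limma-voom 0 of all genes passed after adjustment.

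Among the junction and adhesion genes, Pecam1 encodes PECAM-1 (CD31), a contact protein of endothelial cells that platelets and leukocytes carry too. It lies on mm10 chromosome 11, 106654217 to 106750628, minus strand. Pecam1 had 500.1, 213 and 2263 in WT and 987, 873 and 229.7 in TSP2KO. The library labelled WT 3 stood 6.34-fold above the mean of WT 1 and WT 2, and the genotypes overlapped over most of their range. The means were 992 ± 1110.0 for WT and 696 ± 408 for TSP2KO (SD, n = 3 each), and the log2 fold change was -0.10 (SE 0.90, adjusted p by limma 0.981).

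Cdh5 encodes VE-cadherin, the cadherin of endothelial adherens junctions (chromosome 8, 104101625 to 104144511, plus strand). Its normalised counts were 128, 45.5 and 321 in WT and 98.2, 190.2 and 40.1 in TSP2KO. WT 2 and TSP2KO 3 were the low libraries of their groups, 7.06-fold and 4.75-fold under the highest. Between genotypes the log2 fold change was -0.44 (SE 0.79, adjusted p by limma 0.904).

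Cldn5 encodes claudin-5, a strand protein of endothelial tight junctions (chromosome 16, 18776847 to 18778262, plus strand). It was the least even of the 10 over the libraries, at 72.1, 10.2 and 48.8 in WT and 10.9, 55.4 and 1.78 in TSP2KO. The value in TSP2KO 3 was 2 reads, whose exact Poisson interval of 95% runs from 0.216 to 6.43 normalised counts and covers counting error only. WT 1 and TSP2KO 2 were the highest of their groups, and WT 2 lay below TSP2KO 1 and TSP2KO 2. Its log2 fold change was -1.48 (SE 1.17, adjusted p by limma 0.747), with an interval of 95% from -4.22 to 1.25.

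Esam encodes an immunoglobulin-type adhesion molecule of endothelial tight junctions and platelets (chromosome 9, 37528078 to 37538319, plus strand). Normalised counts of Esam were 155, 65.1 and 905 in WT and 398, 272 and 73.0 in TSP2KO. The library labelled WT 3 was 8.24-fold above the mean of WT 1 and WT 2, and WT 2 and TSP2KO 3 were the lowest, as for Pecam1. Between genotypes Esam had a log2 fold change of -0.07 (SE 1.01, adjusted p by limma 0.988).

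Emcn encodes endomucin, a sialomucin of the surface of capillary and venous endothelium (chromosome 3, 137341067 to 137432185, plus strand). Its values were 90.1, 41.2 and 791 in WT and 445, 382 and 174 in TSP2KO. All 3 TSP2KO libraries lay above WT 1 and WT 2 and below the library labelled WT 3. It was the only gene of the 10 with a log2 fold change above 0, at 1.10 (SE 1.01, adjusted p by limma 0.788). With the library labelled WT 3 left out, the value was 2.32 (SE 0.49, adjusted p by limma 0.0456), and Emcn passed. In that fit 1 of the 10 genes passed, while 5.17% of all genes did, 2.43% higher and 2.75% lower.

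Of the receptors for VEGF, Kdr encodes VEGFR-2, the main signalling receptor of blood endothelium (chromosome 5, 75932827 to 75978458, minus strand). Kdr stood at 125, 26.3 and 162 in WT and 117, 124 and 16.03 in TSP2KO. WT 2 and TSP2KO 3 were 6.15-fold and 7.75-fold under the highest library of their genotype, while the other 4 libraries lay between 117 and 162. Kdr had a log2 fold change of -0.39 (SE 0.95, adjusted p by limma 0.934).

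Flt1 encodes VEGFR-1, which binds VEGF-A and placental growth factor and also acts as a trap for them in a soluble form (chromosome 5, 147561604 to 147726011, minus strand). It had 134, 58.45 and 103 in WT and 61.5, 109 and 36.5 in TSP2KO. Flt1 was the most even of the 10, with 3.68-fold between the lowest and the highest library, and the library labelled WT 3 lay 1.07-fold above the mean of WT 1 and WT 2. For Flt1 the log2 fold change was -0.57 (SE 0.48, adjusted p by limma 0.762). Its interval of 95% was the narrowest of the 10, from -1.68 to 0.55, and so still takes in a fall to less than 0.5 of the WT level.

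Tek encodes TIE2, the receptor for angiopoietins, which some macrophages also carry (chromosome 4, 94739289 to 94874976, plus strand). The normalised counts of Tek were 108, 86.7 and 873 in WT and 303, 211 and 38.3 in TSP2KO. The library labelled WT 3 was 8.96-fold above the mean of WT 1 and WT 2, and TSP2KO 3 was the lowest of all 6. Its log2 fold change was -0.57 (SE 1.05, adjusted p by limma 0.906).

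Tie1 encodes the related receptor TIE1, which pairs with TIE2 (chromosome 4, 118471191 to 118490061, minus strand). Tie1 had 294, 102 and 585 in WT and 193, 237 and 37.4 in TSP2KO. Its lowest library was again TSP2KO 3, 6.34-fold below TSP2KO 2. The log2 fold change was -1.11 (SE 0.84, adjusted p by limma 0.740), the smallest p of the 10. The ratio of Tek to Tie1 was 0.37, 0.85 and 1.49 in WT and 1.57, 0.89 and 1.02 in TSP2KO, so the genotypes overlapped in it.

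Egfl7 encodes a secreted protein of endothelial matrix and is the host gene of miR-126 (chromosome 2, 26580014 to 26593120, plus strand). It stood at 259, 120.0 and 645 in WT and 314, 396 and 70.3 in TSP2KO. The library labelled WT 3 was highest and TSP2KO 3 lowest, as also for Cdh5, Kdr, Tek and Tie1. Its log2 fold change was -0.40 (SE 0.79, adjusted p by limma 0.915). Of the exon bases of Egfl7, 7.37% also belong to an overlapping gene on the same strand and 1.79% to Agpat2 on the other, and reads from these stretches cannot be told apart here.

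**Figure D1:**
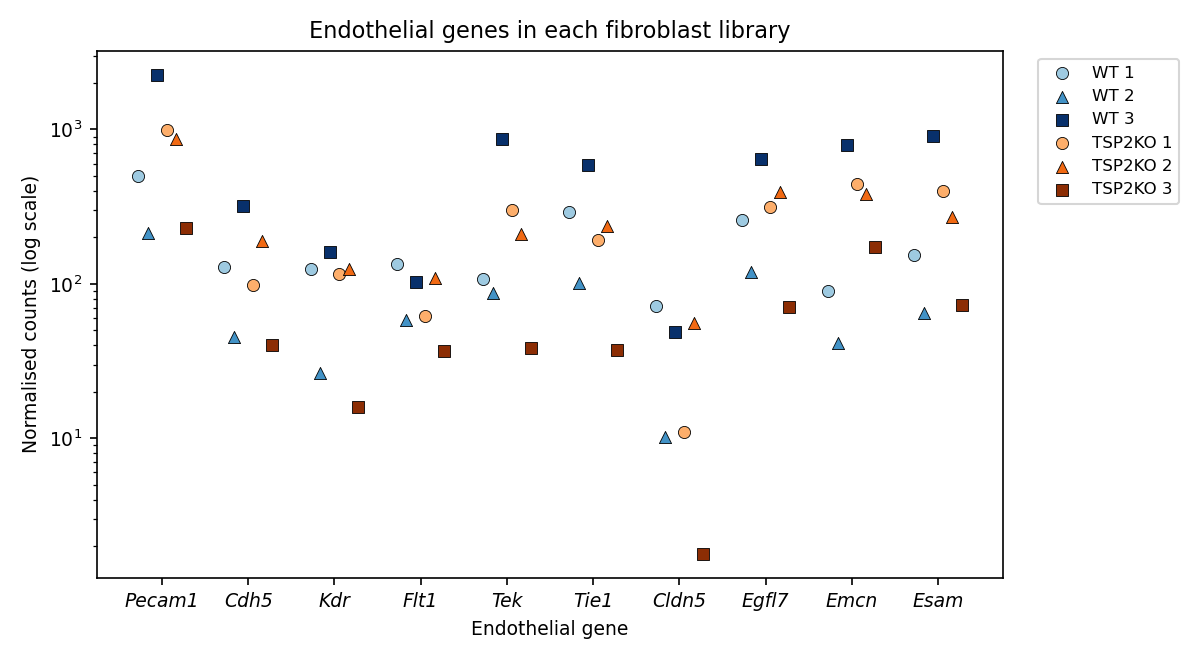
Normalised counts (log axis) of the 10 endothelial genes in each of the 6 libraries, 1 point per library, blue for WT and orange for TSP2KO. For 8 of the 10 genes the library labelled WT 3 (dark blue square) is the highest, and for each of the 10 the lowest point is WT 2 (3 genes) or TSP2KO 3 (7 genes).

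Across the 10 genes the median log2 fold change was -0.42, with 9 below 0 and 1 above, beside a median of -0.01 over all genes tested. These signs depended on single libraries. Without the library labelled WT 3 the median was 0.24, and Pecam1, Cdh5, Kdr, Tek, Egfl7 and Esam lay above 0, between 0.10 and 0.98. Without TSP2KO 3 the median was 0.35, with the same 6 genes above 0, and without WT 2 it was -1.07. Without both the library labelled WT 3 and TSP2KO 3, Emcn, Tek and Esam passed as higher in TSP2KO, 3 of the 10 genes, in a fit in which 8.98% of all genes passed, 4.51% higher and 4.47% lower. That fit was chosen after seeing the data and leaves out the library that was highest for 8 of the 10 genes and the one that was lowest for 7.

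**Figure D2:**
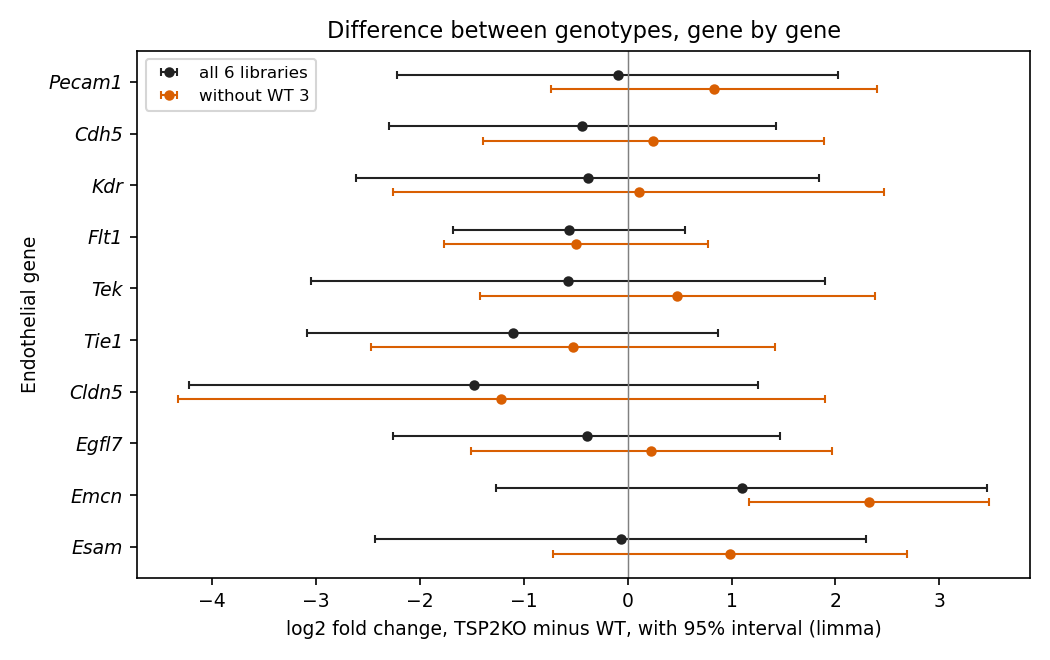
log2 fold change (TSP2KO minus WT) of each endothelial gene with its 95% interval from limma, with all 6 libraries (black) and without the library labelled WT 3 (orange). All black intervals cross 0, and without that library only the interval of Emcn, at 2.32, lies to the right of 0.

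The 10 genes varied together, though not all equally. Over the 6 libraries the Pearson correlation of log2 values was above 0 for all 45 pairs, with a median of 0.86. It describes n = 6 libraries that share their normalisation and was not tested. Pecam1 and Esam had the highest value, 0.996, followed by Flt1 and Cldn5 at 0.995. Emcn stood furthest from Flt1 and Cldn5, at 0.20 and 0.24. The ratio of Emcn to Flt1 was 0.67, 0.70 and 7.66 in WT and 7.24, 3.50 and 4.76 in TSP2KO, low in WT 1 and WT 2 and high in the other 4 libraries.

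The make-up of the endothelial RNA was compared as each gene's share of the summed value of the 10, which a scale factor per library cannot change. Emcn, the sialomucin, made up 4.83%, 5.36% and 11.8% in WT and 15.2%, 13.4% and 24.2% in TSP2KO. All TSP2KO libraries were above all WT libraries, and the library labelled WT 3 was the nearest to them. The means were 7.33% ± 3.89 and 17.6% ± 5.80 (SD, n = 3 each; exact permutation test, two-sided, p = 0.10, the smallest that 3 against 3 libraries allow). Tie1 made up 15.8%, 13.3% and 8.74% in WT and 6.59%, 8.32% and 5.22% in TSP2KO, with all TSP2KO libraries below all WT libraries. Its means were 12.6% ± 3.56 and 6.71% ± 1.56 (SD, n = 3 each; exact permutation p = 0.10), and the nearest libraries, 8.74% and 8.32%, were close. Shares of the same sum are tied, so a higher share of Emcn lowers those of the other genes. The 2 splits are therefore not separate results. Without the library labelled WT 3 the highest WT share of Emcn was 5.36% and the lowest WT share of Tie1 13.3%. No share could reach 0.05 in this design, and those of the other 8 genes overlapped. Of the other 14697 genes, set against the same sum, 2.06% had genotypes without overlap, 1.12% higher and 0.946% lower, but a sum that varies widely between libraries sets those ratios, and the 2 shares are not read against them. Pecam1 held the largest share in every library, from 26.8% to 33.8%.

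**Figure D3:**
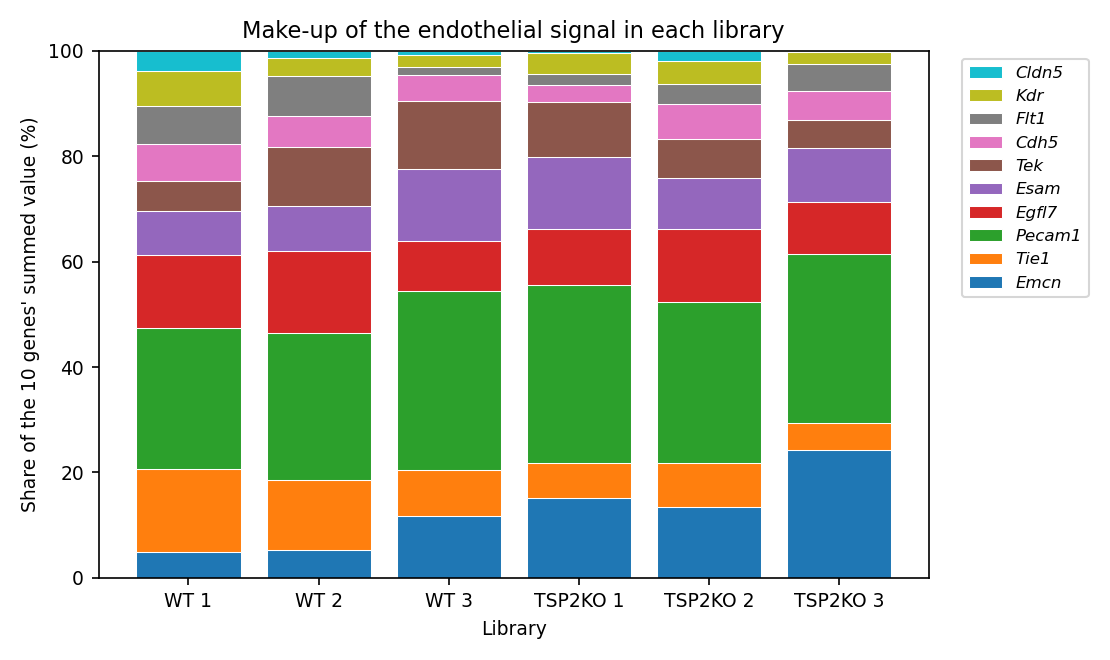
Share (%) of each gene in the summed normalised counts of the 10 endothelial genes, stacked to 100% for each library. Emcn takes 4.83% to 11.8% in WT and 13.4% to 24.2% in TSP2KO, and Tie1 8.74% to 15.8% and 5.22% to 8.32%.

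Apart from the shares and sums above, which do not allow for length, levels were compared between genes per kilobase of exon, from the union of all GENCODE M21 exons of a gene, as means over the 6 libraries. Pecam1 led at 136 normalised counts per kilobase, above Esam in all 6 libraries. Esam at 109 and Egfl7 at 84.0 followed, then Emcn at 59.3, Tek at 57.3 and Tie1 at 49.1. Cdh5 at 32.7, Cldn5 at 23.4, Kdr at 10.5 and Flt1 at 6.21 closed the order. Esam exceeded Egfl7, and Tek exceeded Tie1, in 3 of 6 libraries each, the library labelled WT 3, TSP2KO 1 and TSP2KO 3, so these neighbours did not differ beyond their spread. Emcn exceeded Tek in all 3 TSP2KO libraries and lay below it in all 3 WT libraries. That order was not tested, and the share of gene pairs that split in this way was not computed. The same values of Emcn enter its share above, so it is not a further result. Per kilobase, Emcn had 16.7, 7.62 and 146 in WT and 82.3, 70.6 and 32.1 in TSP2KO, and Tek had 23.0, 18.4 and 185 in WT and 64.3, 44.9 and 8.13 in TSP2KO. The union counts the exons of every isoform, 13504 bases for Flt1, which lowers the level per kilobase of genes with many.

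Further endothelial genes were listed by role. Of 58 in the table, 45 passed the filter on low values, 28 with a log2 fold change below 0 and 17 above, and 0 passed the test. Their median was -0.20, and 0.45 without the library labelled WT 3, when 4 passed as higher (Gja4, Hey1, Hey2 and Mecom) and 1 as lower (Lyve1), beside 2.43% and 2.75% of all genes. Among 27 surface and junction genes tested, 22 were highest in the library labelled WT 3. Gja4, the gap junction protein connexin 37 of arterial endothelium, had the smallest p of the 27, with 10.8, 3.14 and 105 in WT and 146, 87.8 and 31.2 in TSP2KO, which gives a log2 fold change of 2.11 (SE 1.16, adjusted p by limma 0.653). It was low in WT 1 and WT 2 and higher in the other 4 libraries. Clec14a, a surface lectin of vessels, had 467, 376 and 483 in WT and 473, 269 and 207 in TSP2KO, and the genotypes overlapped. Eng, the TGF-beta co-receptor endoglin, which fibroblasts also carry, was even, at 1513, 1032 and 1208 in WT and 1366, 1581 and 1634 in TSP2KO. Adgrl4, an adhesion receptor of endothelium, had 204, 87.9 and 946 in WT and 1095, 613 and 214 in TSP2KO, low in WT 1, WT 2 and TSP2KO 3.

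Of 12 endothelial transcription factors tested, the 4 with the smallest p were Hey2, Hey1, Ets1 and Klf2. Hey2, a target of Notch signalling, had 12.4, 10.98 and 13.5 in WT and 33.9, 53.1 and 56.1 in TSP2KO, which gives a log2 fold change of 1.85 (SE 0.36, adjusted p by limma 0.160). Hey1, a related target, had 6.18, 5.10 and 14.1 in WT and 51.1, 30.8 and 52.5 in TSP2KO, which gives a log2 fold change of 2.36 (SE 0.49, adjusted p by limma 0.175). For both, every TSP2KO library lay above every WT library, as for 5.9% of all genes, and without the library labelled WT 3 their adjusted p by limma was 0.0423 for Hey2 and 0.0235 for Hey1. Neither was low in TSP2KO 3 as 9 of the 10 genes were, since that library was the highest. Ets1, an ETS factor that fibroblasts express too, had 1617, 1466 and 1589.6 in WT and 1319.6, 951 and 951 in TSP2KO. It was lower without overlap between genotypes, as for 8.27% of all genes, with a log2 fold change of -0.55 (SE 0.19, adjusted p by limma 0.390). Klf2, a factor induced by flow, had 8.76, 12.9 and 19.9 in WT and 21.8, 15.7 and 33.8 in TSP2KO, with WT and TSP2KO overlapping.

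For several lymphatic genes the values of the genotypes stood apart, as they did for none of the 10. All 6 tested had a log2 fold change below 0, with a median of -1.39, and for 4 of them every TSP2KO library lay below every WT library, as for 8.27% of all genes. Lyve1, a hyaluronan receptor of lymphatic vessels that macrophages of skin also carry, had 279.7, 157 and 147 in WT and 1.72, 14.5 and 0 in TSP2KO, which gives a log2 fold change of -5.75 (SE 0.94, adjusted p by limma 0.111). It passed without the library labelled WT 3 (adjusted p by limma 0.0326) and with a pseudocount of 10 (log2 fold change -3.79, adjusted p by limma 0.0392), which sets the size of the fold where a library is at or near 0. Mmrn1, a secreted multimerin of lymphatic endothelium and platelets, had 1233, 605 and 645 in WT and 57.5, 141 and 0 in TSP2KO, which gives a log2 fold change of -5.28 (SE 1.66, adjusted p by limma 0.347). Pdpn, podoplanin, which fibroblasts also make, had 1389.5, 2121 and 3422 in WT and 864, 1066 and 654 in TSP2KO. Reln, an extracellular glycoprotein, had 168, 130.2 and 185 in WT and 109, 115 and 25.8 in TSP2KO, with TSP2KO 3 far below the rest. Prox1, the defining factor of lymphatic identity, named here for that role after its values were seen, overlapped, with 363, 96.1 and 55.2 in WT and 51.7, 162 and 11.6 in TSP2KO. The ratio of Mmrn1 to Pecam1 was 2.47, 2.83 and 0.28 in WT and 0.06, 0.16 and 0 in TSP2KO, high in WT 1 and WT 2 alone.

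Markers of other cell types also differed between libraries. Keratinocyte markers, 12 in the table, summed to 1674, 574 and 42363 normalised counts in WT and 14706, 13205 and 547 in TSP2KO. The library labelled WT 3, TSP2KO 1 and TSP2KO 2, which held the most RNA of the 10 endothelial genes, were also the highest in these, and none of the 9 tested passed. For 7 of the 9, WT 2 and TSP2KO 3 were both below the other 4 libraries, as for 9 of the 10 endothelial genes and 6.62% of all genes. For 8 of the 9, the library labelled WT 3, TSP2KO 1 and TSP2KO 2 were all above the other 3, against 9.12% of all genes. Krt14, named here after its values were seen, had 553, 180 and 15525 in WT and 5061, 4727 and 157 in TSP2KO. Of the markers of differentiated keratinocytes, Krt1 was at most 0.890 in every library. Krt10, the exception among the 9, had 17.5, 27.1 and 28.9 in WT and 24.7, 38.6 and 29.4 in TSP2KO. Macrophage markers, 17 in the table, summed to between 3375 and 6096 in WT and between 717 and 834 in TSP2KO. Of 15 tested, 14 had every TSP2KO library below every WT library, as for 8.27% of all genes, and C1qb, Cd74 and Msr1 passed as lower, against 0.0612% of all genes. With a pseudocount of 0.1, no filter, a mean of at least 100, limma-voom or a replicate block, 0 genes passed. Aif1 and Fcgr1, both under the filter, had at most 3.53 and 7.06 in WT and were listed at 0 in TSP2KO. Platelet markers, 5 in the table, summed to between 7.96 and 38.9. The part of these cell types in the endothelial results was not tested.

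**Figure D4:**
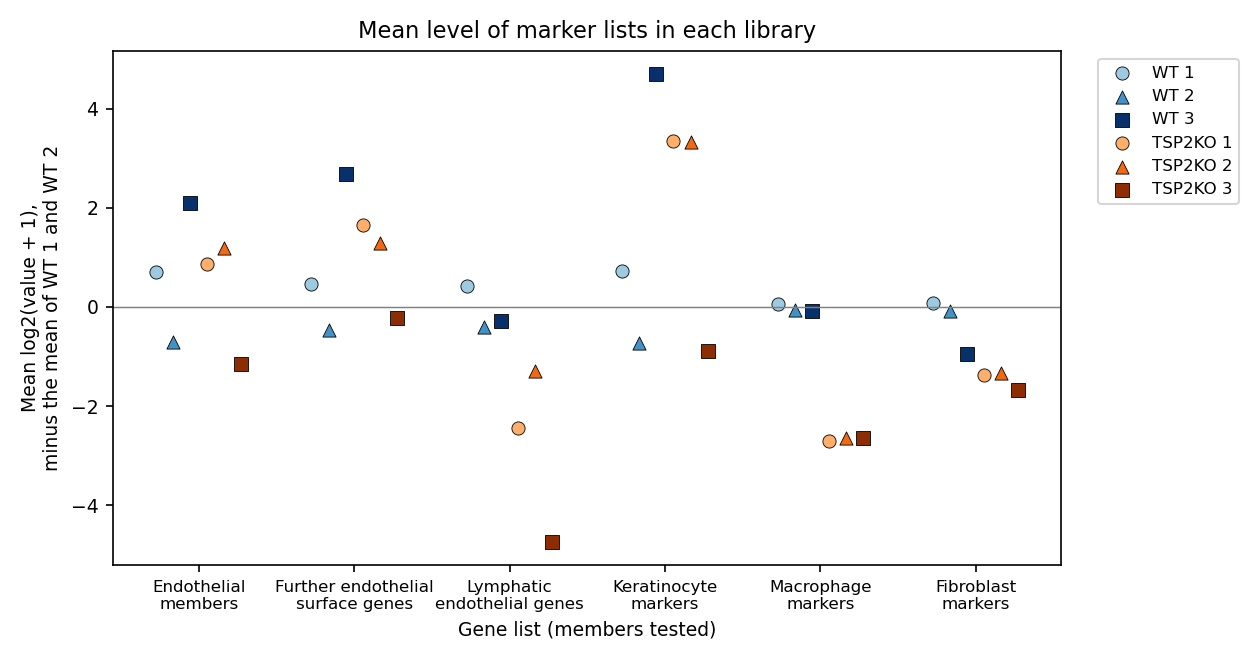
Mean log2(value + 1) of the tested genes of 6 lists in each library, minus the mean of WT 1 and WT 2, 1 point per library. The 10 endothelial genes span from -1.16 in TSP2KO 3 to 2.09 in the library labelled WT 3 with the genotypes mixed, the keratinocyte markers mix them too, and macrophage markers lie between -2.72 and -2.65 in TSP2KO and near 0 in WT.

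Ligands of the VEGF receptors, the lymphatic VEGFR-3 included, and of TIE2 were measured as well. Of 8 tested, 0 passed, 7 had a log2 fold change below 0, and the median was -0.75. Pgf, placental growth factor, a ligand of VEGFR-1, had 1748, 1156 and 703 in WT and 421, 656 and 313 in TSP2KO, which gives a log2 fold change of -1.34 (SE 0.39, adjusted p by limma 0.311). All TSP2KO libraries were below all WT libraries, as for 8.27% of all genes. Without the library labelled WT 3 Pgf passed (adjusted p by limma 0.0412), in a fit in which 2.75% of all genes passed as lower. Vegfd, a ligand of VEGFR-3, had 166, 235 and 375 in WT and 100.0, 144 and 92.6 in TSP2KO, again without overlap. Angpt2, the angiopoietin that modulates TIE2, had 2229, 1269 and 3727 in WT and 1597, 1824 and 439.8 in TSP2KO, highest in the library labelled WT 3 and lowest in TSP2KO 3, like Tek itself. Vegfc, another ligand of VEGFR-3, had 130.3, 116 and 98.8 in WT and 103, 96.8 and 38.3 in TSP2KO. Vegfa, the main ligand of VEGFR-2, named here for that role after its values were seen, had 211, 233 and 208 in WT and 197, 168 and 246 in TSP2KO, which gives a log2 fold change of -0.11 (SE 0.21, adjusted p by limma 0.915).

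The 5 genes whose log2 values followed the mean of the 10 most closely over the 6 libraries were Dipk2b, Sox7, Inava, Nos1 and Spint2, with Pearson correlations from 0.997 down to 0.992. Sox7, a transcription factor of endothelium, had 43.3, 14.9 and 175 in WT and 58.0, 67.7 and 10.7 in TSP2KO, highest in the library labelled WT 3 and lowest in TSP2KO 3, as were 5 of the 10. Spint2, a serine protease inhibitor of epithelia, had 9.79, 2.35 and 35.3 in WT and 8.04, 13.4 and 0.890 in TSP2KO. Dipk2b had 7.21, 1.18 and 32.7 in WT and 8.04, 11.7 and 0 in TSP2KO. Nos1 had 9.27, 3.53 and 23.1 in WT and 9.19, 15.1 and 1.78 in TSP2KO. In TSP2KO 3, where 1 read was worth 0.890, Spint2, Dipk2b and Nos1 rest on few or no reads, which limits their correlations. Of 12705 genes compared, 82 reached 0.95 over these 6 points.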

How the data were processed

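The 6 bulk libraries, 3 WT and 3 TSP2KO, were prepared per the labels' protocols with a stranded kit for polyadenylated RNA. The unit of the authors' deposited table is a normalised signal, called normalised counts. The submitters' processing notes name mm10, STAR, Partek and DESeq2 with no step assigned to each. How strand entered the counting is not stated. Table columns were matched to libraries by genotype and number. Their further suffix differs from that in the labels for every library, so the match, also of the library labelled WT 3, rests on genotype and number alone. For 96.4% of the genes the coordinates equalled GENCODE M21 with the end moved by 1 base.

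In each library the worth of 1 read was taken as its most frequent low value. Between 68.6% and 73.9% of values above 0 were whole multiples of it within 0.02 reads, too few to restore counts for a count test. Genes with a mean of at least 10 were tested with limma 3.58.1 (R 4.3.3) on log2(value + 1) with a mean-variance trend, two-sided, after the same code was tested on simulated data. Alternatives were pseudocounts of 0.1 and 10, no filter, a stricter filter (mean of at least 100), limma-voom, TMM scaling (trimmed mean of M values, computed here), a replicate block, and each library left out. All 10 genes are named, and from each other list up to 4 with the smallest p. Thbs2 checks the labels, and Col1a1, Cd68, Prox1, Vegfa, Kcnj8, Abcc9, Krt1, Krt10, Krt14, Aif1 and Fcgr1 were named after their values were seen. Members and lists were chosen with earlier results of these data known.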

Additional observations from a re-analysis of the deposited data

How the results depend on the processing

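With all libraries kept, 7 other settings gave 67 log2 fold changes for the 10 genes (a mean of at least 100 left 7 of them), of which 66 kept their direction and stayed outside the threshold (adjusted p by limma between 0.733 and 0.999). The exception in direction was Esam, at 0.021 by limma-voom. The number of genes called lower, 9, became 0 with a pseudocount of 0.1, with no filter, with a mean of at least 100 and by limma-voom, 14 with a pseudocount of 10 and 8 by TMM.

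With 1 library left out in turn, the log2 fold change ran from -0.87 to 0.83 for Pecam1, -1.15 to 0.25 for Cdh5, -1.18 to 0.56 for Kdr, -1.18 to 0.48 for Tek, -0.98 to 0.37 for Egfl7, -0.90 to 0.98 for Esam and 0.21 to 2.32 for Emcn. Flt1, Tie1 and Cldn5 stayed below 0. The number of genes called ran from 0 to 357 higher and from 0 to 404 lower, with 0 whichever library was left out other than that labelled WT 3. The median ran from -1.07 to 0.35 for the 10 genes and from -0.69 to 0.45 for the further endothelial genes.

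Without both the library labelled WT 3 and TSP2KO 3, added after seeing the data, Pecam1 was at 1.503, Cdh5 0.83, Kdr 1.05, Tek 1.38, Tie1 0.30, Egfl7 1.00, Emcn 2.74, Esam 1.70, Flt1 -0.11 and Cldn5 -0.14, with Emcn, Tek and Esam past the threshold (adjusted p by limma 0.00731, 0.0284 and 0.0484), and 664 genes were called higher and 657 lower. The medians were 1.02 for the 10 genes and 1.14 for the further ones.

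Same-numbered libraries of the 2 genotypes did not vary together (correlations of deviations -0.42, -0.25 and -0.39), and no library correlated best with its own number, so the numbers were not taken as pairs. With a replicate block 0 genes were called lower in place of 9, and no call for the 10 genes changed. The cause of these changes was not tested. Depth limits the lowest values, such as Cldn5 in TSP2KO 3.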

Other observations

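Mural genes, which mark the pericytes and smooth muscle cells wrapped around small vessels, did not share 1 order over the libraries. Of 8 tested, 0 passed by limma, and 2 had an unadjusted p under 0.05, against 1434 of all 14707 genes. Kcnj8, a channel subunit known from pericytes and named here after its values were seen, had 4.12, 3.53 and 80.2 in WT and 13.8, 8.39 and 2.67 in TSP2KO (normalised counts of libraries 1, 2 and 3). Its partner Abcc9 had 11.3, 5.88 and 121 in WT and 20.1, 14.5 and 2.67 in TSP2KO. Both were highest in the library labelled WT 3, as were 3 of the 8 tested. Another 3 of the 8 were highest in TSP2KO 3, 1 in WT 1 and 1 in WT 2. Cspg4, the proteoglycan NG2, had 467, 447 and 1997 in WT and 4084, 3749 and 5362 in TSP2KO, which gives a log2 fold change of 2.54 (SE 0.56, adjusted p by limma 0.190). Without the library labelled WT 3 Cspg4 passed (adjusted p by limma 0.00405), in a fit in which 2.43% of all genes passed as higher. Ndufa4l2, a mitochondrial protein of pericytes, had 499.6, 446 and 125 in WT and 38.5, 41.4 and 71.2 in TSP2KO. It was lower in every TSP2KO library than in every WT library, as for 8.27% of all genes, with a log2 fold change of -2.62 (SE 0.55, adjusted p by limma 0.175). Next by p came Notch3, with 36.4, 17.3 and 32.1 in WT and 24.7, 64.3 and 88.1 in TSP2KO. Pdgfrb followed, with 33169, 48529 and 22673 in WT and 19434, 22102 and 28276 in TSP2KO, and the genotypes overlapped for both. TSP2KO 3 was the highest for Cspg4 and Notch3, although it was the lowest for 7 of the 10 endothelial genes. Contractile genes, which mural cells share with myofibroblasts, had 7 of 8 log2 fold changes above 0, with a median of 2.39, and 0 passed. Acta2, smooth muscle actin, had 11667, 10318 and 18292 in WT and 53499.9, 56512 and 109857 in TSP2KO, higher without overlap between genotypes, as for 5.9% of all genes.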
